A study of Mus musculus with 15 samples.

Results

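The 7 genes described here, Ly6c2, Plac8, Ifitm6, Spn, Treml4, Ace and Nr4a1, are commonly read as identity genes of the classical and the non-classical blood monocyte. They were chosen by symbol, and each symbol was found once in both deposited tables, as 7 of 28347 genes in the steady-state table and 7 of 48709 genes in the surgery table. RNA had been sequenced from 15 libraries of sorted C57BL/6 mouse cells, 3 in each of 5 groups. From mice in the steady state came macrophages of visceral adipose tissue that were CX3CR1-high and CCR2-high (CCR2-high below), macrophages of that tissue that were CX3CR1-low and CCR2-low (CCR2-low below), and cells labelled blood monocytes. From operated mice came CCR2-low macrophages of visceral adipose tissue, 3 libraries after myocardial infarction (MI) and 3 after sham surgery, whose treatment label reads no myocardial infarction. No transgene, deletion or drug is named for any group, and the sources used here give no ages, cell numbers, time after surgery or number of mice behind a library. Replicates are separate samples by their titles, so a p-value measures the spread between these samples, which may be technical.

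Mouse blood monocytes come in a classical form, which carries much Ly6C on its surface, uses the chemokine receptor CCR2 to leave the bone marrow and enters tissues, and a non-classical form, which carries little Ly6C, much CX3CR1 and CD43, and patrols the vessel wall. In the mouse, classical monocytes convert to non-classical ones, and the nuclear receptor Nr4a1 (Nur77) is required for the non-classical form. Classical monocytes that enter adipose tissue can become macrophages there, next to long-lived resident macrophages, so these genes are often used to judge how close a tissue macrophage stands to blood monocytes.

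Steady-state levels are TPM, which are scaled for gene length and for the sum of each library, and surgery levels are RPKM, reads per kilobase and per 1e6 reads. The 2 scales were never tested against each other. Differences are log2 differences of value + 1 from limma, with standard error (SE) and a two-sided Benjamini-Hochberg adjusted p over all genes tested, called below 0.05. On this scale the change of a gene near 0 is understated. In bulk RNA, fewer cells of a type and less RNA per cell cannot be told apart.

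The labels were checked against marker genes. In the steady state the sorted receptor transcripts followed the sort: Ccr2 averaged 451 ± 18.2 TPM in CCR2-high and 76.1 ± 8.79 TPM in CCR2-low libraries (SD, n = 3), and Cx3cr1 held 52.6 to 78.1 and 1.59 to 2.55 TPM. The surgery libraries are called CCR2-low by their titles, and no CCR2-high library was sequenced beside them. There Ccr2 held 31.5 to 41.4 RPKM after sham and 8.09 to 27.4 RPKM after MI, and Cx3cr1 held 18.1 to 25.6 and 5.11 to 18.9 RPKM. The libraries labelled blood monocytes went against their label in several markers. Mpo and Elane, granule enzymes made by bone marrow precursors of granulocytes and monocytes, averaged 11288 and 10672 TPM there, and the stem and progenitor receptor Kit 110 TPM. The monocyte genes Csf1r, Cd14 and Itgam averaged 151, 11.9 and 15.6 TPM, against 1415, 1852 and 201 TPM in CCR2-high macrophages. Ccr2, also a monocyte marker, averaged 58.9 TPM against 451 TPM. The monocyte marker Ly6c2 went with the label, at 5651 TPM against 26.3 TPM. The 14 genes of a precursor list summed to 28294 to 33662 TPM in these libraries, 906 to 996 TPM in CCR2-high and 675 to 778 TPM in CCR2-low libraries. The libraries are therefore called monocyte-labelled throughout, and no difference from them is read as a difference from mature blood monocytes.

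Of the 7 genes, 4 passed the test between CCR2-high and CCR2-low macrophages, where 17.7% of the 15467 genes tested did. Plac8, Spn and Treml4 were higher in CCR2-high macrophages, as 8.93% of all genes tested were, and Ifitm6 was lower, as 8.74% were. Ly6c2, Ace and Nr4a1 did not pass. The same 4 members were those whose libraries did not overlap between the subsets, which held for 37.7% of all genes tested. Against the monocyte-labelled libraries all 7 passed for CCR2-high macrophages (77.8% of all genes tested) and 6 passed for CCR2-low macrophages (79% of all genes tested), so these counts are read as background. Libraries did not overlap for the same 7 and 6 members, and for 80% and 80.2% of all genes tested. In both, Ly6c2, Plac8 and Spn were lower in macrophages and Ifitm6, Ace and Nr4a1 higher. Of all genes tested, 26.5% were higher and 51.3% lower in CCR2-high macrophages, and 28.4% were higher and 50.6% lower in CCR2-low ones. In both comparisons with monocyte-labelled libraries the classical genes (Ly6c2, Plac8, Ifitm6) did not share a direction. Neither did the non-classical ones (Spn, Treml4, Ace, Nr4a1). Between the macrophage subsets the classical genes ran both ways (0.37, 1.84 and -0.76). The non-classical ones all had positive differences there (1.13, 2.77, 0.46 and 0.54), of which those of Spn and Treml4 passed. Treml4 passed the filter on low values only through the CCR2-high libraries, and Ace and Nr4a1 only through the macrophage libraries. These genes had to differ from the groups in which they are low, so none of these counts is used as support.

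**Figure D1:**
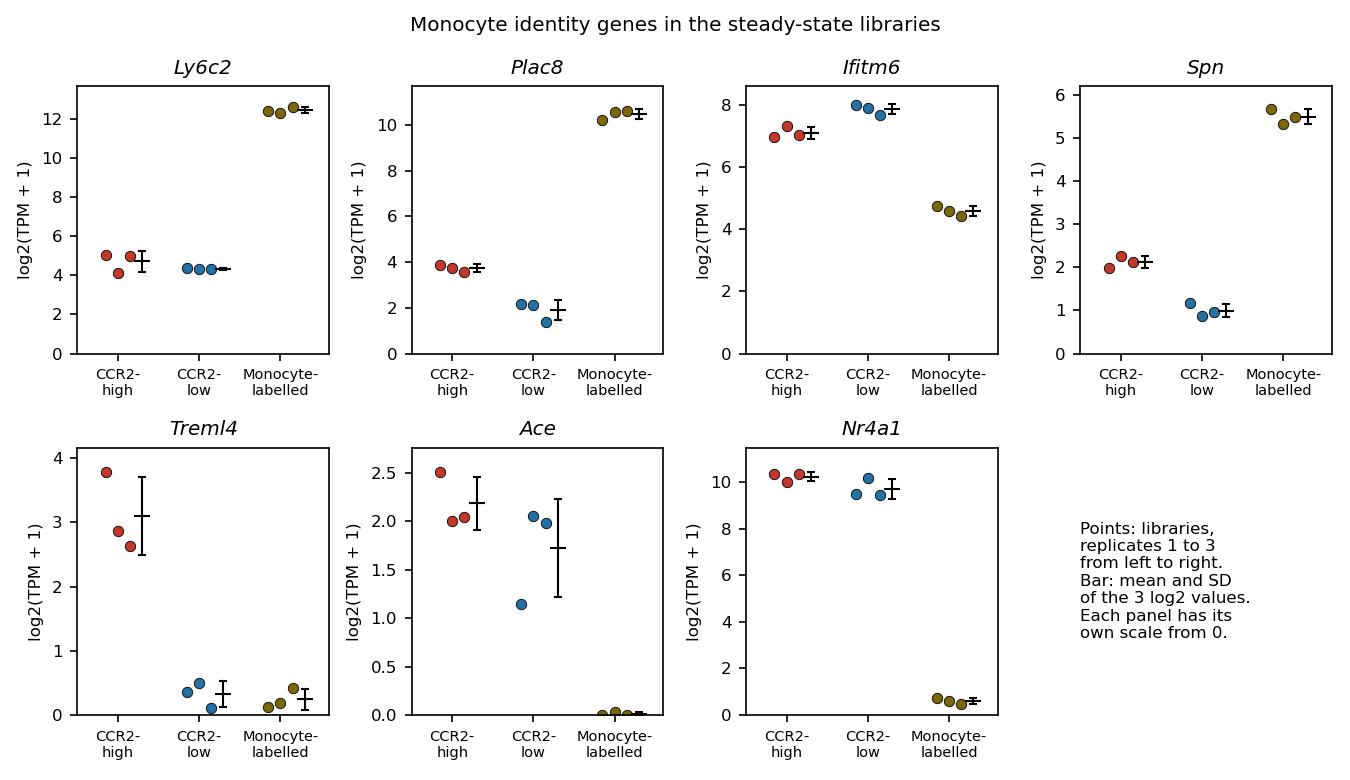
Level of each gene in the 9 steady-state libraries, on the vertical axis as log2(TPM + 1), with 1 point per library and the mean and SD of the log2 values beside each group of 3. Ly6c2, Plac8 and Spn are highest in the monocyte-labelled libraries, Ifitm6 in CCR2-low and Treml4 in CCR2-high macrophages. Nr4a1 and Ace are higher in both macrophage groups than in the monocyte-labelled libraries, but Ace reaches only 4.68 TPM.

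Ly6c2 encodes one of the proteins that antibodies to Ly6C bind, a small antigen anchored to the cell surface, and is the gene by which classical monocytes are most often told apart. It lies on the minus strand of chromosome 15, from 75108158 to 75111970 (mm10, GENCODE M21). The monocyte-labelled libraries held 5545, 5127 and 6281 TPM, which ranked Ly6c2 8 or 9 among all genes of the table in each of them. CCR2-high macrophages held 32.0, 16.3 and 30.8 TPM and CCR2-low macrophages 20.0, 18.9 and 18.9 TPM. The monocyte-labelled values lay far above all macrophage values, and the macrophage groups overlapped because CCR2-high replicate 2 was the lowest of the 6. The mean was 215-fold higher in the monocyte-labelled than in the CCR2-high libraries, with a log2 difference of CCR2-high from monocyte-labelled libraries of -7.75 (SE 0.21, adjusted p = 1.05e-10). For CCR2-low macrophages the mean ratio was 293 and the log2 difference -8.12 (SE 0.21, adjusted p = 6.73e-11). CCR2-high and CCR2-low macrophages differed by 0.37 (95% interval -0.08 to 0.83, adjusted p = 0.256), an interval that holds 0. Without CCR2-high replicate 2 that difference was 0.68 and passed the test (adjusted p = 0.00374), and over all 13 alternatives its adjusted p ran from 0.00374 to 0.621.

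Ly6c2 has a close copy, Ly6c1, which also codes for a Ly6C protein, is expressed by endothelial cells and lies on the same strand of chromosome 15, from 75044018 to 75048830. The coding sequences are both 393 bases long and are identical at 384 positions (97.7%), and 47.1% of the 50-base windows of Ly6c2 occur unchanged in Ly6c1. The sources used here do not say how reads that match both genes were counted, so the split between the genes is uncertain. The 250 bases before the RefSeq start of each gene (GRCm38.p6, minus strand, written in the direction of transcription) are far less alike, with 164 identical positions in 284 aligned columns (57.7%). They are shown because the genes did not keep the same ratio across groups. Capitals mark the letters GAGGAA, the core that the myeloid factor PU.1 binds, on either strand, a match found in 23.1% of 27025 promoters of this length.
Ly6c2 (chr15:75111972-75112221): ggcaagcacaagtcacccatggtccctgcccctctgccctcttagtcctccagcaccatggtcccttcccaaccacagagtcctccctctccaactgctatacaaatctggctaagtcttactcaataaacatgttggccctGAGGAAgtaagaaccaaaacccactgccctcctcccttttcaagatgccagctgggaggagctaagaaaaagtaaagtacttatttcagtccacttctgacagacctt
Ly6c1 (chr15:75048838-75049087): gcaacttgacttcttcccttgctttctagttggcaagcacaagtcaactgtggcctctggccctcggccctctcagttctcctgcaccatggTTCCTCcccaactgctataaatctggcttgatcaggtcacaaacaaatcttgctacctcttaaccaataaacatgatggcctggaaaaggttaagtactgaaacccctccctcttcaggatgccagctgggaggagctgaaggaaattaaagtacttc
The match starts 108 bases before the start site in Ly6c2 and 158 bases before it, on the opposite strand, in Ly6c1. Plac8, Treml4 and Ace hold 2 such matches each in the same window, and Ifitm6, Spn and Nr4a1 hold 0. Like any match of letters, these describe the sequence and show no binding.

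The ratio of Ly6c2 to Ly6c1 TPM was 4.57, 4.37 and 4.46 in the monocyte-labelled libraries. It was 1.45, 0.864 and 0.654 in CCR2-high and 0.288, 0.271 and 0.261 in CCR2-low macrophages. The groups did not overlap in this ratio, and Ly6c1 exceeded Ly6c2 in all 3 CCR2-low libraries. Of the pair it was Ly6c1 that passed the test between the macrophage subsets. Ly6c1 held 22.1, 18.8 and 47.1 TPM in CCR2-high and 69.5, 69.7 and 72.2 TPM in CCR2-low macrophages, a log2 difference of -1.35 (SE 0.26, adjusted p = 0.00536). The list of 12 endothelial marker genes, of which Ly6c1 is 1, summed to 60.0 to 116 TPM in CCR2-high and 235 to 238 TPM in CCR2-low libraries. Of the 12, 11 were called lower in CCR2-high, Ly6c1 among them, against 8.74% of all genes tested. In the monocyte-labelled libraries the list summed to 1208 to 1445 TPM, nearly all of it Ly6c1 at 1172 to 1407 TPM. The defining endothelial genes Cldn5 and Cdh5 averaged 7.97 and 1.96 TPM in CCR2-high and 24.6 and 5.44 TPM in CCR2-low libraries. Cldn5 was listed at 0 in all 3 monocyte-labelled libraries, but it does not stand for the list there. Compared with those libraries, 5 of the 12 genes passed with more RNA in CCR2-high macrophages. Another 4, with Ly6c1, passed with less, and 3 did not pass. For CCR2-low macrophages these numbers were 7, 2 and 3, again with Ly6c1 on the side with less. The part of endothelial cells in the Ly6c1 level was not tested.

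**Figure D2:**
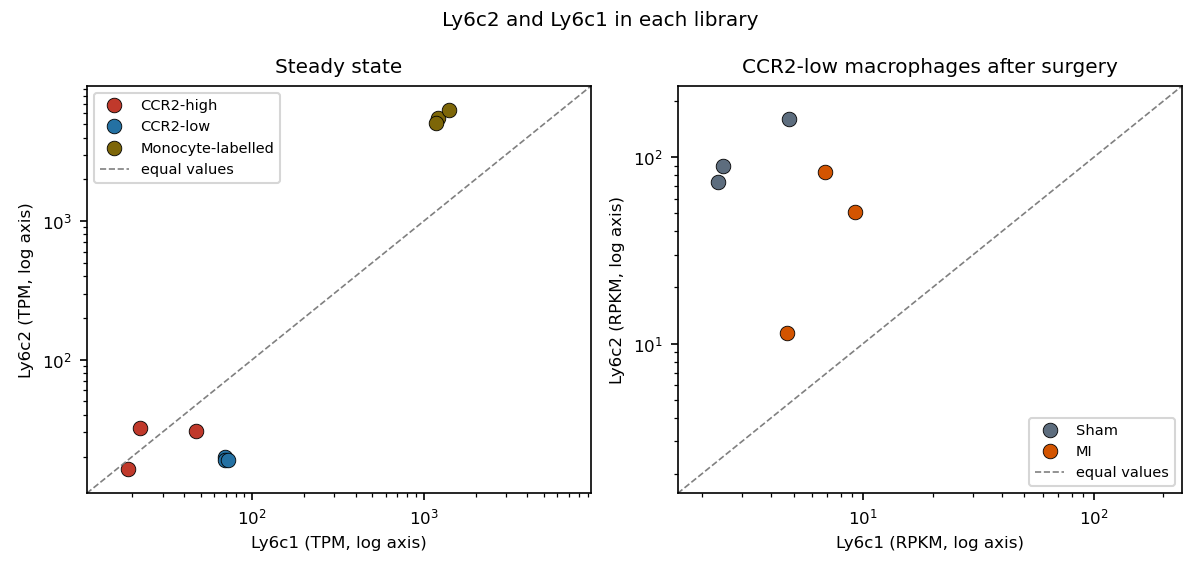
Ly6c2 (vertical axis) against its close copy Ly6c1 (horizontal axis) in each library, in TPM on the left and RPKM on the right, both axes logarithmic; the dashed line marks equal values. In the steady state the monocyte-labelled libraries lie above the line at ratios of 4.37 to 4.57 and the CCR2-low libraries below it at 0.261 to 0.288, and after surgery the 3 sham libraries lie at 31.2 to 36.4 and the 3 MI libraries at 2.44 to 12.2.

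Plac8 encodes a small cysteine-rich protein that is abundant in myeloid precursors and classical monocytes (minus strand of chromosome 5, 100553725 to 100572245). The monocyte-labelled libraries held 1206, 1538 and 1562 TPM, CCR2-high macrophages 13.9, 12.5 and 10.8 TPM and CCR2-low macrophages 3.54, 3.34 and 1.63 TPM. The 3 groups did not overlap, with CCR2-high macrophages in between and much nearer to CCR2-low ones. Unlike Ly6c2, Plac8 passed the test between the macrophage subsets: its mean was 4.37-fold higher in CCR2-high macrophages, a log2 difference of 1.84 (SE 0.20, adjusted p = 0.000303). Its log2 difference from the monocyte-labelled libraries was -6.74 for CCR2-high (SE 0.20, adjusted p = 2.54e-10) and -8.58 for CCR2-low macrophages (SE 0.20, adjusted p = 3.13e-11). Other blood cells express Plac8 too. The marker list of B and plasma cells summed to 54.7 to 66.0 TPM in CCR2-high and 30.9 to 74.3 TPM in CCR2-low libraries, and that of plasmacytoid dendritic cells to 181 to 255 and 248 to 308 TPM. Their part in the Plac8 level was not tested.

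Ifitm6 belongs to the interferon-induced transmembrane proteins, a family known for blocking the entry of viruses, and is expressed mainly in myeloid cells (minus strand of chromosome 7, 141015699 to 141017924). Its order was the reverse of that of Plac8. CCR2-low macrophages held 255, 241 and 206 TPM, CCR2-high macrophages 125, 159 and 131 TPM and the monocyte-labelled libraries 26.1, 23.2 and 20.7 TPM. The 3 groups did not overlap. The log2 difference of CCR2-high from CCR2-low macrophages was -0.76 (SE 0.13, adjusted p = 0.00297). That of CCR2-high macrophages from the monocyte-labelled libraries was 2.51 (SE 0.13, adjusted p = 1.86e-08). CCR2-low macrophages were 10.0-fold higher in mean than the monocyte-labelled libraries, a log2 difference of 3.27 (SE 0.13, adjusted p = 2.05e-09).

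The related family members did not all follow Ifitm6. Ifitm3, which restricts influenza virus, averaged 1753 ± 220 TPM in CCR2-high, 2118 ± 268 TPM in CCR2-low and 436 ± 35.9 TPM in monocyte-labelled libraries (SD, n = 3), with log2 differences from the last of 2.00 and 2.28. Ifitm1 went the other way, with 15.2 ± 1.12 and 12.6 ± 0.938 TPM in the macrophages and 116 ± 14.0 TPM in the monocyte-labelled libraries, log2 differences of -2.85 and -3.10. All 4 of these differences passed the test. None of Ifitm1, Ifitm2 and Ifitm3 passed between the macrophage subsets (adjusted p = 0.17, 0.139 and 0.17). The coding sequence of Ifitm6 is 60.5, 50.6 and 51.1% identical to those of Ifitm1, Ifitm2 and Ifitm3 and shares no 50-base window with them, so reads of that length are not expected to fit both.

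Spn encodes CD43, a heavily glycosylated protein of the leukocyte surface whose high level marks non-classical monocytes in sorting (minus strand of chromosome 7, 127132232 to 127137823). The monocyte-labelled libraries held 49.8, 38.8 and 43.9 TPM, CCR2-high macrophages 2.97, 3.78 and 3.37 TPM and CCR2-low macrophages 1.24, 0.830 and 0.944 TPM. Again the groups did not overlap and CCR2-high macrophages stood in between. The log2 difference between CCR2-high and CCR2-low macrophages was 1.13 (SE 0.14, adjusted p = 0.000648), with means that differed 3.36-fold. Against the monocyte-labelled libraries it was -3.37 for CCR2-high (SE 0.14, adjusted p = 4.9e-09) and -4.49 for CCR2-low macrophages (SE 0.14, adjusted p = 4.33e-10). T cells express Spn as well. The T and NK cell list summed to 28.5 to 34.9 TPM in CCR2-high, 19.6 to 29.0 TPM in CCR2-low and 785 to 977 TPM in monocyte-labelled libraries, where Nkg7 alone averaged 855 TPM. The T cell receptor subunit Cd3e averaged 0.617, 0.789 and 0.0366 TPM in CCR2-high, CCR2-low and monocyte-labelled libraries. The part of T cells and NK cells in the Spn level was not tested.

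Treml4 encodes a receptor-like protein of the TREM family that binds dying cells and is found on non-classical monocytes and some splenic macrophages and dendritic cells (plus strand of chromosome 17, 48264295 to 48275360). Of the 7 genes, it alone was above 1 TPM in the libraries of 1 group only. CCR2-high macrophages held 12.8, 6.31 and 5.21 TPM, CCR2-low macrophages 0.287, 0.416 and 0.0778 TPM, and the monocyte-labelled libraries 0.0889, 0.136 and 0.342 TPM. CCR2-high libraries lay above all others, and the other groups overlapped. CCR2-high macrophages exceeded CCR2-low ones by a log2 difference of 2.77 (SE 0.27, adjusted p = 0.000191) and monocyte-labelled libraries by 2.85 (SE 0.27, adjusted p = 2.17e-06). Treml4 passed the filter only through the CCR2-high libraries and so had to differ, and these p-values are a description and not support. Without a filter the adjusted p was 0.00332 and 6.27e-05. With a pseudocount of 0.1 in place of 1 the differences were 4.53 and 4.81. CCR2-low macrophages and monocyte-labelled libraries differed by 0.08 (95% interval -0.51 to 0.67, adjusted p = 0.791), and the sign turned to -0.01 without CCR2-low replicate 2. The related genes Treml1 and Treml2 had another order: Treml2 averaged 18.4 ± 3.25 TPM in the monocyte-labelled libraries and 0.412 ± 0.233 and 0.277 ± 0.134 TPM in CCR2-high and CCR2-low macrophages, and neither gene passed between the macrophage subsets (adjusted p = 0.462 and 0.665).

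Ace encodes angiotensin-converting enzyme, which makes angiotensin II and is a surface marker of non-classical monocytes and of endothelium (plus strand of chromosome 11, 105967945 to 105989964). CCR2-high macrophages held 4.68, 3.02 and 3.12 TPM and CCR2-low macrophages 1.21, 3.16 and 2.95 TPM. In the monocyte-labelled libraries Ace was listed at 0 in replicates 1 and 3 and at 0.0206 TPM in replicate 2. The macrophage groups overlapped, with CCR2-low replicate 1 apart from the other 5, and differed by 0.46 (95% interval -0.08 to 0.99, adjusted p = 0.236). Without CCR2-low replicate 1 that difference was 0.17 (adjusted p = 0.652) and without CCR2-high replicate 1 it was 0.30 (adjusted p = 0.56). Over all alternatives its adjusted p ran from 0.139 to 0.652. Both lay above the monocyte-labelled libraries, CCR2-high macrophages by a log2 difference of 2.17 (SE 0.24, adjusted p = 8.62e-06) and CCR2-low ones by 1.72 (SE 0.24, adjusted p = 5.25e-05). Ace passed the filter only through the macrophage libraries, so these p-values are a description too, and without a filter they were 0.000166 and 0.000616. Those sizes depend on the pseudocount, since 2 of 3 libraries were listed at 0, and no fold is given. Ace averaged 2.44 ± 1.07 TPM in CCR2-low and 3.61 ± 0.931 TPM in CCR2-high macrophages (SD, n = 3). The endothelial markers, Ly6c1 among them, summed to 235 to 238 TPM in CCR2-low and 60.0 to 116 TPM in CCR2-high libraries, and their part in the Ace level was not tested.

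Nr4a1 encodes an orphan nuclear receptor that non-classical monocytes require and that is also an immediate early gene, induced within minutes by stimuli that include the handling of cells (plus strand of chromosome 15, 101254269 to 101274795). It was the most abundant member in both macrophage groups. CCR2-high macrophages held 1306, 1028 and 1315 TPM and CCR2-low macrophages 709, 1170 and 694 TPM, against 0.669, 0.506 and 0.375 TPM in the monocyte-labelled libraries. Both macrophage groups lay above the monocyte-labelled libraries, and they overlapped with each other because CCR2-low replicate 2 exceeded CCR2-high replicate 2. The log2 difference from the monocyte-labelled libraries was 9.64 for CCR2-high (SE 0.19, adjusted p = 1.07e-11) and 9.11 for CCR2-low macrophages (SE 0.19, adjusted p = 1.51e-11). Nr4a1 passed the filter only through macrophage libraries, and without a filter the adjusted p was 1.71e-08 and 2.12e-08. Between the subsets it was 0.54 (95% interval 0.12 to 0.96, adjusted p = 0.0766). Without CCR2-low replicate 2 it was 0.78 and passed the test (adjusted p = 0.00394), and over all 13 alternatives the adjusted p ran from 0.00394 to 0.238.

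The other 2 receptors of the family were far less abundant. Nr4a2 averaged 50.1 ± 10.3 TPM in CCR2-high, 31.1 ± 17.8 TPM in CCR2-low and 3.41 ± 0.346 TPM in monocyte-labelled libraries (SD, n = 3). Nr4a3 averaged 23.2 ± 4.20, 12.4 ± 4.15 and 0.0244 ± 0.0152 TPM. Nr4a3 passed the test between CCR2-high and CCR2-low macrophages (log2 difference 0.89, SE 0.21, adjusted p = 0.0143) and Nr4a2 did not (0.78, SE 0.30, adjusted p = 0.0988).

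Other immediate early genes moved with Nr4a1 between macrophages and monocyte-labelled libraries. All 19 genes of an immediate early list, among them Fos, Atf3 and Egr1, were higher in both macrophage groups, as 26.5% and 28.4% of all genes tested were, with a median log2 difference of 4.82 for CCR2-high and 4.77 for CCR2-low macrophages, where the median over all genes was -0.42 and -0.40. They summed to 17120 to 19975 TPM in CCR2-high, 17263 to 19472 TPM in CCR2-low and 544 to 749 TPM in monocyte-labelled libraries. Some of these genes passed the filter only through the macrophage libraries and so had to differ. In monocyte-labelled libraries Atf3 averaged 0.0836 TPM and Nr4a3 held at most 0.0395 TPM. The count of 19 is therefore a description and not support. Between the macrophage subsets 2 of the 19 were called higher (Nr4a3 and Klf6) and 2 lower (Ier3 and Ier2) in CCR2-high, against 8.93% and 8.74% of all genes, with a median of 0.11. The part of cell handling in these levels was not tested. The 250 bases before the RefSeq start of Nr4a1 (GRCm38.p6, plus strand) are shown because all 4 letter runs in capitals, TGCGTCA, resemble the element through which cyclic AMP and AP-1 factors act on immediate early genes.
Nr4a1 (chr15:101266596-101266845): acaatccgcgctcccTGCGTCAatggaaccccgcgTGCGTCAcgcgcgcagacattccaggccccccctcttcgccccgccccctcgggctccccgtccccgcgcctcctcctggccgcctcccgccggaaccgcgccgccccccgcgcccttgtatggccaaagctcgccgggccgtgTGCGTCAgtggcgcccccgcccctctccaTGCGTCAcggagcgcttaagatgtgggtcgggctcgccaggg
These runs begin 235, 215, 71 and 42 bases before the start. The run was picked after the sequence had been seen. Searched on both strands, it occurs at least once in 1.78% of 27025 promoters of this length, and 1 promoter, that of Nr4a1, holds 4. The promoters of the other 6 members hold 0. The NR4A response element AAAGGTCA, found in 1.31% of promoters, and the C/EBP motif TTGCNNAA, found in 9.55%, occur in none of the 7 windows.

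**Figure D3:**
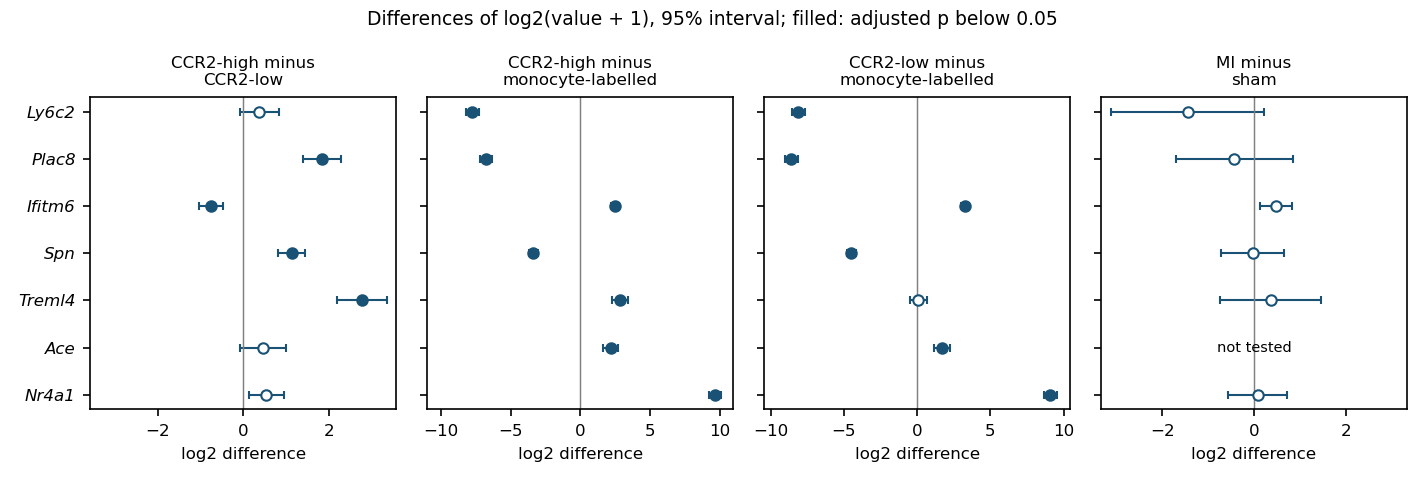
Log2 difference of value + 1 for each gene in the 4 comparisons (horizontal axis) with its 95% interval, from limma; filled points have an adjusted p below 0.05. Plac8, Spn and Treml4 lie to the right of 0 and Ifitm6 to the left between CCR2-high and CCR2-low macrophages, both monocyte-labelled comparisons reach beyond 8 in size, and no gene is filled for MI against sham, where Ace was below the filter and not tested.

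The other genes of the monocyte programmes were taken from lists without the 7 members. Between CCR2-high and CCR2-low macrophages, 6 of 18 classical monocyte genes tested were higher in CCR2-high, 3 were lower, and the median log2 difference was 0.09. Over all genes tested 8.93% were higher and 8.74% lower, with a median of -0.01, and the counts of the 3 lists here are to be read against these shares. The classical genes with the smallest p were Ccr2 (2.56), Ms4a4c (2.76), Gpr141 (3.00) and the glutathione transferase Mgst1 (-1.05). Ccr2 was sorted on, so its place among the 6 was set by the sort. Of 20 non-classical genes, 8 were higher and 5 lower, with a median of 0.34. Cx3cr1, the fractalkine receptor that was sorted on, led them at 4.48, followed by the transcription factor Klf2 at -1.11, which is also on the list of regulators, Cd300e at 1.93 and Stap1 at 1.04. Of 14 regulators of the monocyte lineage, which share Nr4a2, Nr4a3 and Egr1 with the immediate early list, 1 was higher (Nr4a3) and 2 were lower (Klf2 at -1.11 and Klf4 at -0.72). Klf4, a factor that monocyte development requires, and Klf2 were thus lower in the subset in which Spn and Treml4 were higher. Both programmes therefore held genes in both directions between the subsets.

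Against the monocyte-labelled libraries the lists were again mixed. For CCR2-high macrophages 10 of 18 classical genes were higher and 6 lower (median 0.76), and 16 of 20 non-classical genes were higher and 3 lower (median 2.47), where 26.5% of all genes were higher and 51.3% lower (77.8% called). For CCR2-low macrophages the counts were 10 and 7 of 18 (median 0.35) and 13 and 4 of 20 (median 1.76), where 28.4% of all genes were higher and 50.6% lower (79% called). The classical genes Fcgr1, Cd14 and Lyz2 were higher in CCR2-high macrophages by 5.40, 7.15 and 4.80, in the direction opposite to Ly6c2 and Plac8. All 14 precursor genes were lower in both macrophage groups, as Ly6c2, Plac8 and Spn were, and all 14 macrophage genes were higher, as Ifitm6 and Nr4a1 were. List genes near 0 on 1 side passed the filter only through the other side, so these counts are a description and not support. The part of precursor cells in these differences was not tested. Under median-of-ratios scaling the median over all genes moved from -0.42 to 0.02 and from -0.40 to 0.01, and the share of called genes that were higher in macrophages from 34.1 to 50.4% and from 36 to 50.6%. No member changed its direction or its side of the threshold under that scaling.

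The genes with the most similar profile over the 9 steady-state libraries differed from member to member. Likeness was the root mean square difference of log2(TPM + 1) values centred on each gene's mean, among 9922 candidate genes, and all profiles are shaped by 3 groups only. Closest to Ly6c2 were Cst7 (0.262), Gpr97 (0.322) and Nkg7 (0.364), and Plac8 had Nkg7, Ly6c2 and Cst7 (0.639 to 0.730). Nkg7, a granule protein of killer lymphocytes, averaged 855 TPM in the monocyte-labelled libraries, where the T cell receptor subunits Cd3d and Cd3e averaged 0.191 and 0.0366 TPM. Spn lay closest to Cenpm (0.158), Mcm7 (0.186) and Mcm2 (0.188), the last of which are subunits of the helicase that unwinds DNA in replication. Mcm2 averaged 276 TPM in monocyte-labelled, 26.7 TPM in CCR2-high and 10.2 TPM in CCR2-low libraries, the same order as Spn. Closest to Treml4 were Dusp2 (0.324), Ccr2 (0.378) and Havcr2 (0.445). Havcr2, which encodes the checkpoint receptor TIM-3, averaged 9.24 TPM in CCR2-high, 1.06 TPM in CCR2-low and 0.198 TPM in monocyte-labelled libraries. Nr4a1 lay closest to the chemokine gene Cxcl2 (0.266), the stress factor Atf3 (0.285) and the chemokine gene Cxcl1 (0.384), and Cxcl2 averaged 4573, 2617 and 3.19 TPM in the 3 groups. Ifitm6 had Efemp2, Dclre1c and Itfg3 (0.0867 to 0.123), and Ace had Cyp4v3, Capg and Traf5 (0.228 to 0.236). The SD of the member's own profile was 1.49 for Ifitm6 and 1.03 for Ace. It was 3.98 for Ly6c2, 3.92 for Plac8, 2.03 for Spn, 1.44 for Treml4 and 4.70 for Nr4a1, so equal differences are not equally close matches.

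After surgery, none of the 6 members tested passed between MI and sham CCR2-low macrophages, where limma called 0% of 9607 genes. The smallest adjusted p over all genes was 0.241, 753 genes had an unadjusted p under 0.05, and the robust form of the test also called 0 genes. Without MI replicate 3, 5 genes were called, none of them a member. MI replicate 1 stood apart from the other 5 libraries. It was lowest of the 6 in Ly6c2, Plac8, Spn and Treml4, in Ccr2 (8.09 against 26.8 to 41.4 RPKM) and in Cx3cr1 (5.11 against 18.1 to 25.6 RPKM). Its classical list summed to 19954 RPKM against 35766 to 45531 RPKM in the others. Most of that sum was Lyz2, at 17600 RPKM against 32621 to 42358 RPKM, so the sum mainly describes 1 gene. Its immediate early list summed to 8101 RPKM against 4572 to 5620 RPKM.

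Ly6c2 held 161, 89.9 and 73.7 RPKM after sham and 11.4, 50.9 and 83.1 RPKM after MI. The groups overlapped, since MI replicate 3 exceeded sham replicate 3, and the MI values spread over a wide range. The log2 difference was -1.45 (95% interval -3.10 to 0.21, adjusted p = 0.69), and it ran from -2.02 to -0.64 with single libraries left out, with -0.64 for the fit without MI replicate 1. The ratio of Ly6c2 to Ly6c1 was 33.5, 36.4 and 31.2 after sham and 2.44, 5.53 and 12.2 after MI, with no overlap. That ratio is a description without a test. Ly6c1 held 4.79, 2.47 and 2.36 RPKM after sham and 4.69, 9.20 and 6.81 RPKM after MI, a log2 difference of 0.92 (SE 0.28, adjusted p = 0.554). The endothelial list summed to 16.1 to 21.3 RPKM after sham and 22.0 to 31.5 RPKM after MI, but Ly6c1 itself is part of that sum. Ly6c1 made up 2.36 of 21.1 RPKM in sham replicate 3 and 4.69 of 22.0 RPKM in MI replicate 1. The groups therefore overlapped in the rest of the list, whose part in the ratio was not tested.

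Plac8 held 132, 56.9 and 61.8 RPKM after sham and 26.5, 68.6 and 102 RPKM after MI. The groups overlapped, and the log2 difference of -0.43 (95% interval -1.71 to 0.85, adjusted p = 0.883) turned to 0.11 without MI replicate 1. Ifitm6 was the only member tested whose groups did not overlap: it held 63.5, 71.9 and 74.2 RPKM after sham and 99.0, 114 and 81.9 RPKM after MI. Non-overlap with MI higher was seen for 5.84% of all genes tested. Its log2 difference was 0.48 (SE 0.15, 95% interval 0.13 to 0.83), with an unadjusted p of 0.0151 from limma and an adjusted p of 0.554, so it did not pass. Ifitm1 did not overlap either, at 4.93 to 8.12 RPKM after sham and 9.83 to 15.3 RPKM after MI (adjusted p = 0.46), and Ifitm2 and Ifitm3 overlapped. Neutrophil genes, none of them called, had a summed level of 176 to 242 RPKM after sham and 368 to 501 RPKM after MI. Ly6g and Cxcr2, taken from the defining neutrophil genes, averaged 0.272 and 0.278 RPKM after sham and 0.633 and 0.726 RPKM after MI. The list was not uniform. Of its 13 genes 7 were tested, with log2 differences of -0.33 to 1.79 and a median of 1.26. In MI replicate 1, which had the highest sum, 2 of the 13 were listed at 0, against 0 of them in each sham library. Fibroblast genes summed to 22.3 to 45.8 and 71.5 to 105 RPKM. The part of either cell type in the Ifitm6 level was not tested.

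Of the non-classical genes, Spn held 2.79, 2.65 and 2.30 RPKM after sham and 1.24, 4.21 and 2.72 RPKM after MI. The groups overlapped, with both the lowest and the highest value after MI. The log2 difference of -0.02 (95% interval -0.71 to 0.66, adjusted p = 0.992) turned to 0.30 without MI replicate 1 and to 0.02 without sham replicate 1. Treml4 held 8.75, 8.97 and 9.11 RPKM after sham and 4.85, 22.0 and 14.7 RPKM after MI. The sham values lay within a narrow range that the MI values surrounded, and the log2 difference of 0.37 (95% interval -0.73 to 1.47, adjusted p = 0.883) was 0.93 without MI replicate 1 and -0.05 without MI replicate 2. Ace held 0.163, 0.112 and 0.245 RPKM after sham and 0.369, 0.726 and 0.515 RPKM after MI. These groups did not overlap, but Ace stayed below the filter of 1 RPKM in at least 3 libraries and was not tested with it. The share of 5.84% given above for such non-overlap covers tested genes only. Without a filter its log2 difference was 0.38 (adjusted p = 0.469). The endothelial gene Kdr, 1 of a list of 12, was also below the filter and was picked after values were seen. It averaged 0.240 RPKM after sham and 0.654 RPKM after MI with no overlap, and it does not stand for the list. Without Ly6c1 the list sums overlapped between the groups. The 3 list genes tested had log2 differences of -0.08 to 0.92, the highest that of Ly6c1, and none was called. The part of endothelial cells in the Ace level was not tested.

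Nr4a1 held 128, 113 and 212 RPKM after sham and 134, 141 and 191 RPKM after MI. The groups overlapped closely, with a log2 difference of 0.08 (95% interval -0.56 to 0.71, adjusted p = 0.959). Its sign turned when a single library was left out, to -0.08 without MI replicate 3, -0.01 without sham replicate 1 and -0.10 without sham replicate 2. None of the other 18 immediate early genes tested was called, and their median log2 difference was 0.36, where that of all genes was -0.02. None of the 17 classical, 19 non-classical and 12 regulator genes tested was called either. Those with the smallest p were S100a8 (1.24) and S100a9 (1.60) of the classical list, which neutrophils also express strongly, and Fabp4 (1.37), Pglyrp1 (1.59) and Dusp16 (0.36) of the non-classical list, all with adjusted p of 0.425 or more.

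**Figure D4:**
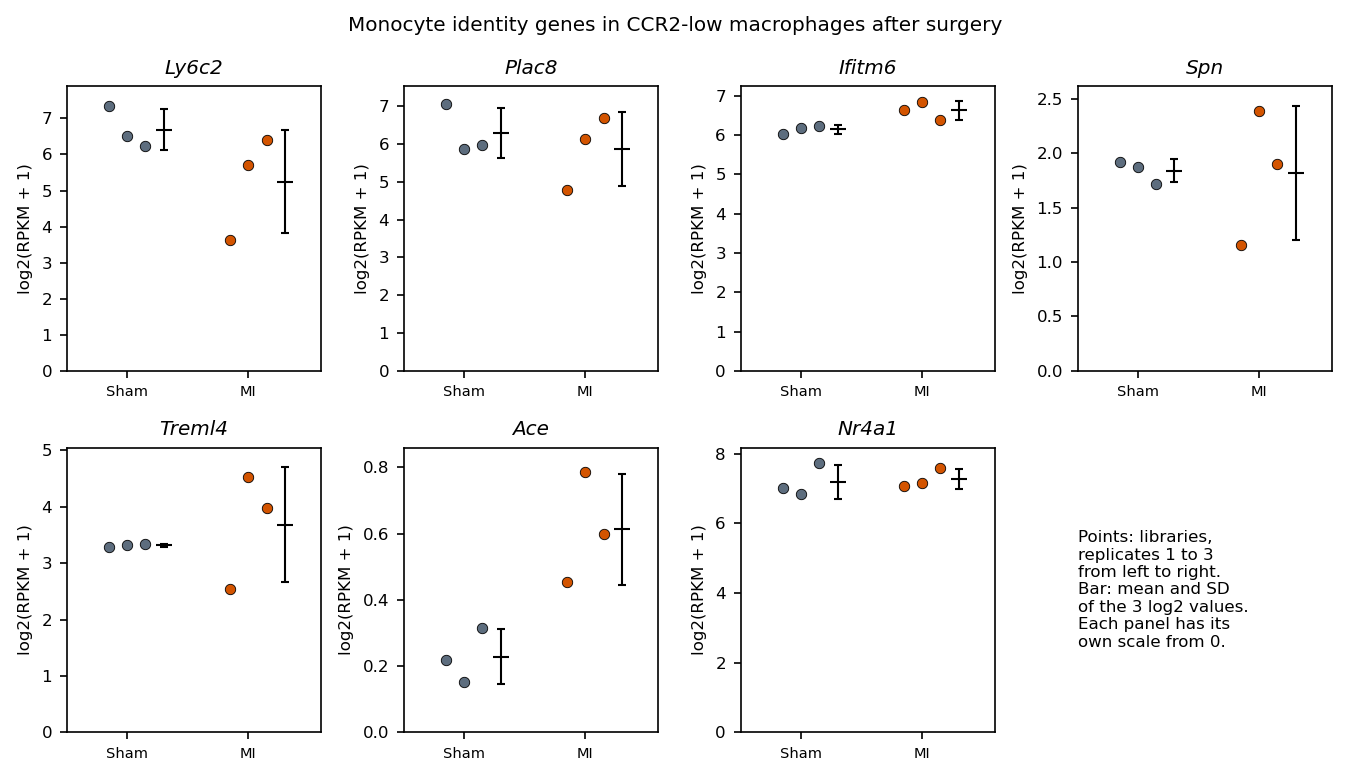
Level of each gene in the 6 surgery libraries of CCR2-low macrophages, on the vertical axis as log2(RPKM + 1), with 1 point per library and the mean and SD of the log2 values beside each group of 3. The groups overlap for Ly6c2, Plac8, Spn, Treml4 and Nr4a1, and MI lies above sham for Ifitm6 and for the much lower Ace; the lowest MI point of Ly6c2, Plac8, Spn and Treml4 is MI replicate 1.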

How the data were processed

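The 7 genes, the gene lists and the tests were chosen with earlier results of these data known. The authors deposited TPM per gene for the 9 steady-state libraries and RPKM per gene for the 6 surgery libraries, per the file headers. The deposited steady-state table also holds log2 fold changes by the authors, each with an adjusted p-value. In the authors' deposited table the CCR2-high against CCR2-low adjusted p was below 0.05 for Plac8 (4.75e-06), Spn (2.81e-05) and Treml4 (3.01e-08) and 1 for the other 4 members. Reads were placed on mm10 according to the submitters' processing notes; the aligner, the counter and the annotation are not named in the sources used here. TPM summed to 1e+06 in each library. RPKM summed to 382465 to 423718, and from the steps between low values the read totals behind them were 57.56 to 75.16 M (86.5 to 88.1% of low values were whole within 0.05). No steady-state depth is stated in those sources.

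Values were tested with limma 3.58.1 in R 4.3.3 on log2(value + 1), eBayes with trend, after a filter that kept genes with a value of 1 or above in 3 or more of the fitted libraries. The 9 steady-state libraries shared 1 spread and the 6 surgery libraries another. The fits were tested on simulated data. Named genes beyond the 7 were the 3 nearest profiles of each, family members, up to 4 genes of a list with the smallest p and defining markers; Klf4, Kdr, Fos, Egr1 and Mcm2 with Havcr2 levels were picked after values were seen. Where a table carried another symbol, 5 list genes were matched by ID. Promoters are from RefSeq GRCm38.p6, coordinates from GENCODE M21. Alternatives were pseudocount, filter, scaling, robust eBayes, a replicate block, a fit of the compared libraries only and leaving out each library.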

Additional observations from a re-analysis of the deposited data

How the results depend on the processing

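Of the values of single members under alternatives, 84 of 86 between CCR2-high and CCR2-low, 86 of 86 between CCR2-high and monocyte-labelled, 87 of 88 between CCR2-low and monocyte-labelled and 70 of 77 between MI and sham libraries kept direction and side of the threshold. The cause of the changes was not tested. Genes called between CCR2-high and CCR2-low numbered 2733, 1795 with a replicate block by title number, and 1481 to 2424 with 1 library left out (1481 without replicate 1 and 1800 without replicate 3 of CCR2-high, 1580 and 1612 without replicates 1 and 3 of CCR2-low). Between MI and sham 0 to 5 genes were called with 1 library left out. Signs turned with 1 library left out for Treml4 between CCR2-low and monocyte-labelled (-0.0075 to 0.19, the lowest without CCR2-low replicate 2). Between MI and sham they turned for Plac8 (-0.84 to 0.11, the highest without MI replicate 1), Spn (-0.31 to 0.30, the highest without MI replicate 1, and 0.018 without sham replicate 1), Treml4 (-0.052 to 0.93, the lowest without MI replicate 2) and Nr4a1 (-0.10 to 0.35, the lowest without sham replicate 2, with -0.081 without MI replicate 3 and -0.013 without sham replicate 1).

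Whether the replicate numbers pair the samples could not be settled, since each group of 3 libraries was centred on its own mean. Same-numbered libraries correlated at -0.57 to 0.0637 by title number. By the numbers in the column names, MI and sham correlated at 0.17, 0.103 and -0.505, and number 3 matched its own number best. The block by those column numbers called 0 genes and 0 members. The block by title number called 4, 7, 6 and 0 members in the 4 comparisons, as without it. Treml4 left the filter when a CCR2-high library was dropped. Of 35 group means, 30 stayed within 1 SD under median-of-ratios scaling and 5 did not. Those 5 were Ly6c2 in CCR2-low (19.3 to 21.1 TPM) and Ly6c2, Plac8, Ifitm6 and Spn in monocyte-labelled libraries. In the latter group Ly6c2 fell from 5651 to 4522, Plac8 from 1435 to 1156, Ifitm6 from 23.4 to 18.6 and Spn from 44.2 to 35.1 TPM.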

Other observations

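Libraries labelled as CCR2-low macrophages of visceral adipose tissue are present in both tables, and some members stood at very different levels in them. Treml4 was 0.0778 to 0.416 TPM in the steady state and 8.75 to 9.11 RPKM after sham surgery, and Plac8 was 1.63 to 3.54 TPM and 56.9 to 132 RPKM. TPM summed to 1e+06 in each library and RPKM to 382465 to 423718, so the units do not share a scale. With each sham library brought to a sum of 1e+06, a step chosen after the values were seen, Treml4 was 20.6 to 22.4, Plac8 142 to 312 and Nr4a1 281 to 513, where Nr4a1 held 694 to 1170 TPM in the steady state. The ratio of Ly6c2 to Ly6c1, which does not depend on the library total, was 0.261 to 0.288 in the steady state and 31.2 to 36.4 after sham. Cx3cr1, low by the sort label in both, averaged 2.02 TPM in the steady state and 50.4 (44.3 to 61.9) on the rescaled values after sham. Of the sham libraries only replicate 3 (61.9) lay in the range given above for CX3CR1-high, CCR2-high macrophages. Replicates 1 and 2 (44.3 and 45.0) lay below that range. Treml4 on the rescaled values lay above the 5.21 to 12.8 TPM of CCR2-high macrophages. On these scales both genes went against the CCR2-low name of the sham libraries, Cx3cr1 by lying far above its steady-state CCR2-low mean. Ccr2 went with the name, averaging 76.1 TPM and 88.6 on those scales, against 451 TPM in CCR2-high macrophages. The tables were normalized and processed separately and share no library, so surgery, sort, sequencing and counting cannot be told apart and no test was made.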
